A study of Mus musculus with 10 samples.

Results

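The genes described here are 38 antiviral interferon-stimulated genes and the regulators that control them, followed in the right ventricle of trained and untrained mice. They were chosen by name, with earlier results of these data known. Every probe set whose annotated gene symbol was 1 of the 38 was taken. Of the 38, 35 were read by at least 1 probe set that carried a single symbol, out of 12393 such genes on the array, through 55 probe sets. Isg15 was on the array only in a probe set annotated to more than 1 gene and is given no value, and Ifi44 and Xaf1 were not analysed here. By role the 35 genes fell into 18 type I interferon effectors and sensors, 5 genes driven mainly by interferon-gamma, 6 transcription factors, and 6 receptor chains and kinases.

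Interferons are secreted proteins by which cells warn each other of infection. Type I interferon binds a receptor made of Ifnar1 and Ifnar2, whose kinases Jak1 and Tyk2 phosphorylate Stat2, which with Irf9 acts in the nucleus on the interferon-stimulated response element (ISRE) of genes such as Ifit1, Oas2 and Rsad2. Interferon-gamma binds Ifngr1 and Ifngr2, signals through Jak1 and Jak2, and acts on the gamma-activated site (GAS) of genes such as Irf1. Heart muscle cells, endothelium and resident leukocytes all carry these receptors, and the pathway is known in the heart for limiting viral myocarditis.

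The study measured right ventricular RNA from 10 129SV mice, each on an array of its own. Plakoglobin (gene Jup) is a junction protein of heart muscle cells, and the study set mice with a single working copy, labelled plakoglobin (+/-), against wildtype. The trained mice, aged 6 months, were 4 wildtype and 4 plakoglobin (+/-), each with 2 males and 2 females, and swam 6 times per week in water of 35 °C for sessions lengthened from 5 to 90 min. The untrained mice were 1 wildtype and 1 plakoglobin (+/-) female, both aged 10 months. Training and age therefore cannot be told apart in any comparison below, and each untrained group has no replicate. No untrained male was measured, and the labels do not tie littermates to each other.

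Values are linear array signals from the MAS5 software, scaled by the authors to the same trimmed mean on each array (2501.3 to 2501.6). The median signal per array was 897.8 to 1150. GAPDH, read by control probe sets at its 3' and its 5' end as a sign of RNA integrity, had a 3' to 5' ratio above 2 on 3 arrays. Trained wildtype replicate 2 stood at 17.8, while replicate 1 of each trained group, both males, stood at 2.5 for wildtype and 2.98 for plakoglobin (+/-), and the other 7 arrays at 0.849 to 1.02. Jup itself, read by 1 probe set, was 2386.8 in the untrained wildtype mouse and 3156.9 in the untrained plakoglobin (+/-) mouse. Among trained mice it was 3613 ± 653.9 in wildtype and 2526 ± 680.1 in plakoglobin (+/-) (SD, n = 4 each), with trained plakoglobin (+/-) replicate 2 at 3519.9, inside the wildtype range, so genotypes are given as labelled.

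Promoters of 5 type I genes that carry the ISRE core and of Irf1, which carries the GAS core, are shown because these letters are what the pathway reads. The windows are the 160 bases before the transcription start, from RefSeq on GRCm38.p6, the C57BL/6J reference and not the strain measured. They run 5′ to 3′ on the gene's strand, and capitals mark, in the 5 type I genes, matches to the ISRE core (GAAA, any 2 bases, GAAA) or its reverse complement (TTTC, any 2 bases, TTTC) and, in Irf1, the match to the GAS core TTCNNNGAA, which is its own reverse complement. GAS matches in the windows of Oas1a and Bst2, which start 98 and 136 bases before the start site, are not capitalised as such. They lie at chr12:26456453-26456612 (minus strand) for Rsad2, chr19:34640729-34640888 (plus) for Ifit1, chr19:34583369-34583528 (plus) for Ifit3, chr8:71537473-71537632 (minus) for Bst2, chr5:120907526-120907685 (minus) for Oas1a and chr11:53769854-53770013 (plus) for Irf1.
Rsad2: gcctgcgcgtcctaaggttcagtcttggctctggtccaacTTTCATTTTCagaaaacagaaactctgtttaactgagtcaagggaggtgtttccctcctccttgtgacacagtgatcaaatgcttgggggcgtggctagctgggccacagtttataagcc
Ifit1: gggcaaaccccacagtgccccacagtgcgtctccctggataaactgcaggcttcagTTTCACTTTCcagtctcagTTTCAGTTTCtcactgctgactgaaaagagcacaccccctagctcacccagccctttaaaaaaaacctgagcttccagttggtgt
Ifit3: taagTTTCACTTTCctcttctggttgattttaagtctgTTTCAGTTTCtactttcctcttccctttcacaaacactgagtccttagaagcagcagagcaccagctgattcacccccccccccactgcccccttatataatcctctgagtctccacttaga
Bst2: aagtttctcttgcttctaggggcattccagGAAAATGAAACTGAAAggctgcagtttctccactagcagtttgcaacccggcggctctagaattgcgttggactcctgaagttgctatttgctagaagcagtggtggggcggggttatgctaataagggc
Oas1a: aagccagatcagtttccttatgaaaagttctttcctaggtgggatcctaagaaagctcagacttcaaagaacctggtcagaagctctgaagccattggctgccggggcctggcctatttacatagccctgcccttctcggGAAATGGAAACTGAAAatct
Irf1: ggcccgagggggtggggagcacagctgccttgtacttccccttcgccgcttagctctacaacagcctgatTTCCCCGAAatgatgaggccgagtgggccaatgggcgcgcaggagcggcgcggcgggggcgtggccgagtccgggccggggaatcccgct

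Ifit1 and Ifit3 each show a pair of separate ISRE matches, and Oas1a holds its match close to the start. In Bst2 and Oas1a the capitals cover a run longer than the 10 bases of the core because matches overlap. Over 250 bases before the start, searched on both strands, the ISRE core was found in 9 of 37 member windows (24.3%), which belong to 31 member genes, against 978 of 32851 windows of all genes (2.98%). The genes were Ifit1, Ifit3, Oas1a, Rsad2, Bst2, Cxcl10, Socs1, Irf2 and Stat2. The GAS core was found in 9 of 37 member windows (24.3%) against 2306 of 32851 (7.02%), in Ifit2, Oas1a, Bst2, Eif2ak2, Samhd1, Irf1, Irf8, Irf2 and Ifnar2. Bst2 carries its GAS match in letters that overlap its ISRE match. None of the 6 receptor and kinase genes held the ISRE core in this window.

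Rsad2, which encodes viperin, a radical SAM enzyme that makes an antiviral nucleotide, was the 1 member of 25 tested that passed the training test, which 0.538% of all genes tested passed. Its brightest probe set read 5691.7 in the untrained wildtype mouse and 7274.4 in the untrained plakoglobin (+/-) mouse. Trained wildtype replicates 1 to 4 read 3181.9, 1837.2, 3098.9 and 1025.1. Trained plakoglobin (+/-) replicates 1 to 4 read 4595.1, 2715.3, 2077.2 and 801.1. Every one of the 8 trained values was under both untrained values, and the 4 trained males lay above the 4 trained females. Rsad2 was lower by 2.27 on the log2 scale in the trained than in the untrained, older mice (SE 0.39, limma with Benjamini-Hochberg adjustment, adjusted p = 0.0235), which is 4.84-fold.

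Both untrained mice are female and sex is a term of the fit, so with all 10 mice and the sex term each fitted training change equals trained females minus untrained females, and the males enter only through the sex term and the spread. This does not hold for fits without the sex term or with an untrained mouse left out. Without the sex term the Rsad2 change was -1.61 (adjusted p = 0.332). A two-sided exact permutation test of 8 trained against 2 untrained mice, over 45 labelings with a smallest possible p of 0.0222, gave p = 0.0444. This test was run on all 35 members, and its p-values are not adjusted. The call also ended without the untrained wildtype mouse (-2.43, adjusted p = 0.152), without the untrained plakoglobin (+/-) mouse (-2.12, adjusted p = 0.365) and without trained wildtype replicate 4 (-2.15, adjusted p = 0.0824).

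The other probe sets of Rsad2 were lower in trained mice as well. The probe set of middle signal read 3524.4 and 2094.3 in the untrained wildtype and plakoglobin (+/-) mouse, and 432.5, 846.6, 708.6 and 542.6 in trained wildtype against 854.1, 1023.6, 1320.6 and 1057.1 in trained plakoglobin (+/-) mice. Its log2 difference was -1.60 (SE 0.43), which did not pass (adjusted p = 0.201). The dimmest probe set lay below the filter on low signals and read 1020.6 and 719.6 in the untrained mice and 37.5 to 712.6 in the trained mice, with 4 of those values under the floor of 104. None of the 3 probe sets had a trained mouse at or above an untrained one. They differed in the sex contrast, at 1.32 (SE 0.34) for the brightest and -0.31 (SE 0.34) for the middle one.

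**Figure D1:**
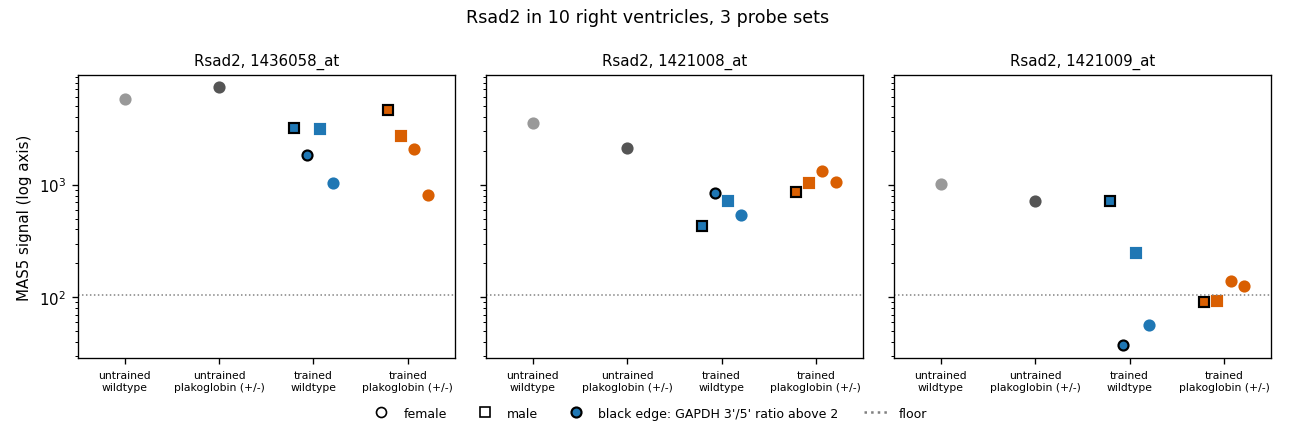
Signal of the 3 Rsad2 probe sets in each mouse (y axis, linear MAS5 signal on a log scale; groups on the x axis; points are mice, circles female and squares male, black edges mark a GAPDH ratio above 2, and the dotted line is the floor). In the brightest probe set the untrained mice sit at 5691.7 and 7274.4, above the 8 trained mice at 801.1 to 4595.1.

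Of the other type I effectors, 11 were tested besides Rsad2 and none passed (limma). At an unadjusted p under 0.05, 4 were lower and 2 higher, Oas1a and Samhd1, beside 3.89% and 5.1% of all genes tested. Oas2, an enzyme that makes the 2-5A signal for RNase L, read 1624.7 in the untrained wildtype and 2008.3 in the untrained plakoglobin (+/-) mouse. Trained wildtype replicates 1 to 4 read 1576.7, 732.6, 1955.2 and 541.1, and trained plakoglobin (+/-) replicates 1 to 4 read 1458.7, 286.0, 149.5 and 338.5. A single trained mouse, wildtype replicate 3, lay between the untrained mice and the other 7 lay below both. The log2 difference was -2.26 (SE 0.67, adjusted p = 0.276), and it ranged from -3.15 to -1.38 as single mice were left out.

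Ifit1, a protein that binds viral RNA lacking a host cap, read 1934.7 and 1983.2 in the untrained wildtype and plakoglobin (+/-) mouse. It read 709.6, 995.1, 1442.7 and 1152.6 in trained wildtype and 1428.2, 1180.1, 1266.1 and 263.0 in trained plakoglobin (+/-) replicates 1 to 4. The groups did not overlap, with a log2 difference of -1.32 (SE 0.59, adjusted p = 0.566). Without trained plakoglobin (+/-) replicate 4, the lowest mouse, the difference was -0.75.

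Several further type I genes are described here after their values were seen. Ifih1, which encodes the double-stranded RNA sensor MDA5, read 1777.2 and 2060.3 in the untrained mice, and from 680.6 over a median of 1202.3 to 1704.7 in the trained mice. No trained mouse reached an untrained one, and the log2 difference was -1.13 (SE 0.30, adjusted p = 0.199). Lgals3bp, a secreted glycoprotein, read 4205.5 and 4655.1 in the untrained mice and 1128.6, 2098.2 and 3502.9 as lowest, median and highest in the trained mice. Its groups did not overlap either, at -1.13 (SE 0.48, adjusted p = 0.524). Usp18, the protease that removes Isg15 and dampens the receptor, was at -0.84 and Ifit3 at -0.50, and both had 7 of 8 trained mice below both untrained mice.

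A few type I genes were at higher values in trained mice. Oas1a, another 2-5A synthetase, read 501.1 and 1067.1 in the untrained mice and 1032.1, 1558.4 and 2576.8 as lowest, median and highest in the trained mice, and the ranges overlapped by 1 mouse. Its log2 difference was 0.97 (SE 0.40, adjusted p = 0.505), and it was 0.48 without the untrained wildtype mouse and 1.47 without the untrained plakoglobin (+/-) mouse. Samhd1, which depletes the nucleotides that viruses need, gave no single direction. Its brightest probe set, of a class that can share sequence with other transcripts, read 1101.6 and 1024.1 in untrained and 1834.7 to 4719.0 in trained mice without overlap, at 0.98 (SE 0.29, adjusted p = 0.274), and the other probe sets were at -0.39, 0.52 and 1.72. The probe set at -0.39 also did not overlap, in the opposite direction, with 3040.4 and 2880.4 in untrained and 1569.2 to 2603.3 in trained mice. Trim25 (-0.16), the kinase gene Eif2ak2 (-0.17) and Ifi35 (0.04) lay near 0.

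The mean signal of 6 type I genes, Ifit2, Oasl2, Mx1, Mx2, Bst2 and Adar, was too low to be tested, and they are given from a fit without the filter, in which no member passed and 0.242% of the 12393 genes did. Bst2, which encodes tetherin, a membrane protein that holds budding virus on the cell, read 1660.2 and 2006.2 in the untrained mice. It read 216.5, 257.0, 392.5 and 414.1 in trained wildtype and 145.5, 640.6, 175.5 and 156.5 in trained plakoglobin (+/-) replicates 1 to 4. No trained mouse came near the untrained pair, and the exact two-sided permutation p was 0.0222, the smallest that 45 labelings allow. In the fit without a filter the log2 difference was -2.97 (SE 0.65, adjusted p = 0.187). Ifit2 was at -1.52 and Oasl2, a relative of the Oas genes, at -1.37, each with 7 of 8 trained mice below both untrained mice. Mx1 (-0.29), Mx2 (0.35) and the RNA-editing enzyme gene Adar (0.49, but -0.37 without the untrained plakoglobin (+/-) mouse) had overlapping ranges, with Mx2 at 86.5 to 222.0 on all trained arrays.

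**Figure D2:**
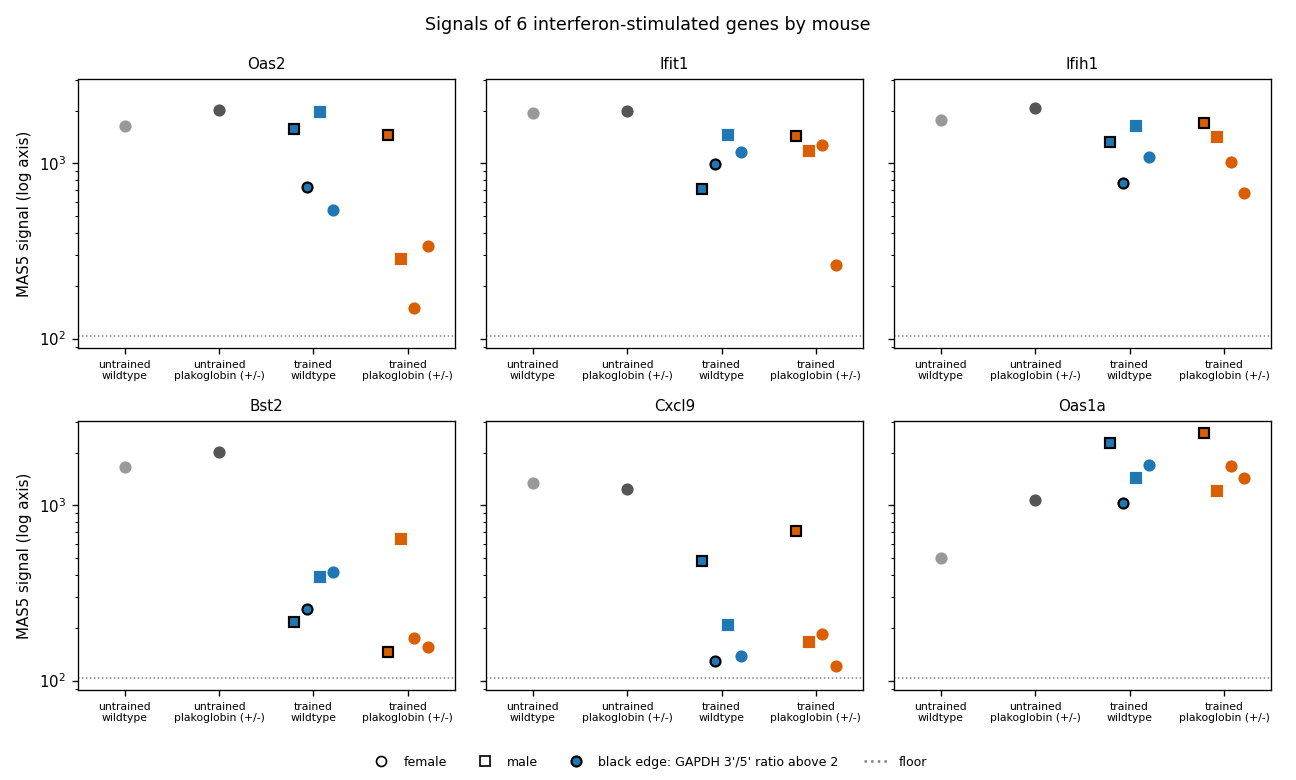
Signal of 6 members in each mouse (y axis, linear MAS5 signal on a log scale; groups on the x axis; points are mice, circles female and squares male, black edges mark a GAPDH ratio above 2, and the dotted line is the floor). Ifit1, Ifih1, Bst2 and Cxcl9 have all 8 trained mice below both untrained mice, Oas2 has 7 of 8, and Oas1a has 7 of 8 above.

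Of the 5 genes driven mainly by interferon-gamma, Irf1 and Irf8 were tested. Irf1, the transcription factor that carries the GAS site shown above, read 6356.3 and 8288.5 in the untrained wildtype and plakoglobin (+/-) mouse. It read 6639.2, 5065.6, 6012.2 and 5311.1 in trained wildtype and 5502.2, 4408.0, 5241.1 and 4804.6 in trained plakoglobin (+/-) replicates 1 to 4. Trained wildtype replicate 1 lay between the untrained mice and the other 7 below them, at a log2 difference of -0.51 (SE 0.22, adjusted p = 0.521), or -0.80 without the untrained wildtype and -0.22 without the untrained plakoglobin (+/-) mouse. Irf8, a factor of the myeloid lineage, read 1205.6 and 1488.2 in untrained mice. It read 1178.6, 1004.1, 1266.1 and 890.1 in trained wildtype and 1216.6, 1106.6, 940.1 and 777.1 in trained plakoglobin (+/-) mice, which overlapped the untrained pair, at -0.58 (SE 0.29, adjusted p = 0.644).

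The remaining interferon-gamma genes were below the filter. Cxcl9, a chemokine that draws T cells, read 1338.2 and 1245.2 in the untrained mice, 479.6, 130.0, 208.0 and 138.0 in trained wildtype and 715.6, 165.5, 184.5 and 120.5 in trained plakoglobin (+/-) mice. The 8 trained values were all under the untrained pair, and the highest of them were the 2 male arrays with raised GAPDH ratio. The exact two-sided permutation p was 0.0222, and the log2 difference without a filter was -3.19 (SE 0.60, adjusted p = 0.118). Without those arrays and trained wildtype replicate 2 it was -3.14 (adjusted p = 0.13). Socs1, the feedback inhibitor of Jak kinases, read 762.6 and 758.1 in untrained and 86.0 to 686.1 in trained mice, again without overlap, at -1.40. Cxcl10, the neighbour of Cxcl9, read 150.5 and 736.6 in untrained and 71.5 to 573.1 in trained mice, at -0.84. The ranges overlapped, and on the linear scale the untrained pair alone spanned a wider range than the trained mice.

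The transcription factors lay closer to 0. Of 5 tested, all had log2 differences below 0, from -0.69 to -0.09, and none passed (limma; 1, Irf3, had an unadjusted p under 0.05). Stat2, the partner of Irf9, read 958.6 and 1451.7 in the untrained mice, 949.1, 639.6, 705.1 and 664.6 in trained wildtype and 463.1, 1412.6, 920.1 and 734.1 in trained plakoglobin (+/-) mice. Only trained plakoglobin (+/-) replicate 2 reached between the untrained mice, and the difference was -0.69 (SE 0.47, adjusted p = 0.787). Irf3, which starts interferon production after viral RNA is sensed, read 3215.4 and 3444.4 in untrained mice, 3035.3, 1956.2, 1814.7 and 2041.2 in trained wildtype and 3079.4, 3136.8, 2717.8 and 2135.8 in trained plakoglobin (+/-) mice. Its groups did not overlap, at -0.60 (SE 0.25, adjusted p = 0.509), in a probe set of a class that can share sequence with other transcripts. A dimmer Irf3 probe set that was tested was at -0.40 with overlap. Those below the filter were at -0.59 and 1.47 in the fit without it, both with overlap. The one at 1.47 had 3 values under the floor. Irf9, the DNA-binding partner of Stat2, read 1122.6 and 1593.7 in untrained mice, 909.1, 1512.2, 1251.1 and 981.6 in trained wildtype and 509.6, 1276.1, 987.1 and 1231.1 in trained plakoglobin (+/-) mice, at -0.21 (SE 0.42). Irf7, which amplifies type I interferon production, was at -0.16 and Stat3 at -0.09. Irf2, an antagonist of Irf1, was below the filter at -0.03.

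The receptor chains and kinases showed no common direction: 4 of 6 were lower, 2 higher, and none passed or had an unadjusted p under 0.05 (limma). Ifngr2, the signalling chain of the interferon-gamma receptor, read 7610.9 and 10509.8 in the untrained mice, 2903.3, 4541.6, 9432.1 and 7576.9 in trained wildtype and 2312.8, 7513.3, 6913.8 and 7350.4 in trained plakoglobin (+/-) mice. The 3 lowest values came from the 3 arrays with a GAPDH ratio above 2, and the part of RNA integrity in them was not tested. Its log2 difference was -0.47 (SE 0.51), while a dimmer probe set was at 0.48 (SE 0.37). Ifnar1, a chain of the type I receptor, read 1488.2 and 2145.3 in untrained mice, 1642.2, 2412.8, 1930.2 and 2569.3 in trained wildtype and 1483.2, 2082.2, 2323.8 and 2158.3 in trained plakoglobin (+/-) mice, at 0.40 (SE 0.25), or 0.10 without the untrained wildtype and 0.71 without the untrained plakoglobin (+/-) mouse. Ifnar2, its partner chain, read 4345.0 and 4303.5 in untrained mice, 4121.5, 3102.9, 4011.0 and 3575.4 in trained wildtype and 4377.5, 4570.0, 2782.3 and 3903.5 in trained plakoglobin (+/-) mice, at -0.38 (SE 0.21). Ifngr1 was at -0.13, Jak1 at -0.06 and Jak2 at 0.17. By their brightest probe sets, trained and untrained mice overlapped in all 6. A Jak1 probe set below the filter did not overlap, with 1083.6 and 1095.1 in untrained and 50.0 to 1071.6 in trained mice. In the fit without the filter it was at -0.52 (SE 0.75). An Ifnar2 probe set below the filter was at -1.41 (SE 0.47) in that fit, with overlap.

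Counted over roles, 1 of 25 tested members passed, Rsad2, against 0.538% of all 8365 genes tested and 0.251% that passed as lower. At an unadjusted p under 0.05, 7 members were lower and 2 higher, against 3.89% and 5.1% of all genes. A fitted value below 0 was found in 20 of 25 members, beside 49.9% of all genes. No trained mouse reached either untrained mouse in 5 of 25 tested members, beside 4.35% of tested genes, and all 8 were above the untrained pair in 1, beside 4.96%. Over all 35 members without the filter the counts were 8 and 1, beside 3.89% and 4.47% of the 12393 genes on the array. The 1 above the pair in both counts was Samhd1, also among the 2 higher at an unadjusted p. Another of its probe sets, at -0.39, did not overlap in the opposite direction. The median training value was -0.38 over the 25 members and 0.00 over all genes. By role it was -0.67 for 12 type I genes (9 lower, 3 higher), -0.54 for 2 interferon-gamma genes (both lower), -0.21 for 5 factors (all lower) and -0.09 for 6 receptors and kinases. With 2 interferon-gamma genes tested, the type I and interferon-gamma roles cannot be ranked against each other by these medians. Members and lists were picked with earlier results of these data known, and every gene is set against the same 2 untrained mice. The counts here and below therefore describe the lists and are not a test of them.

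**Figure D3:**
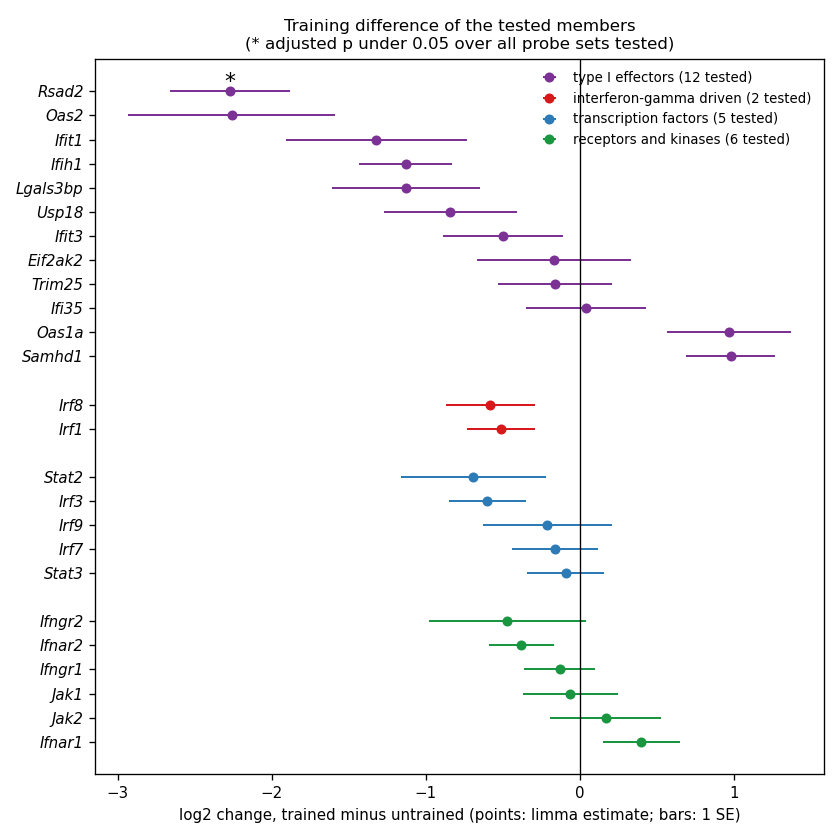
Fitted training log2 change (x axis) of each tested member, grouped by role on the y axis; points are estimates and bars are 1 standard error. Rsad2, at -2.27 and marked with an asterisk, is the point past the threshold, and Oas1a and Samhd1 lie on the positive side.

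**Figure D4:**
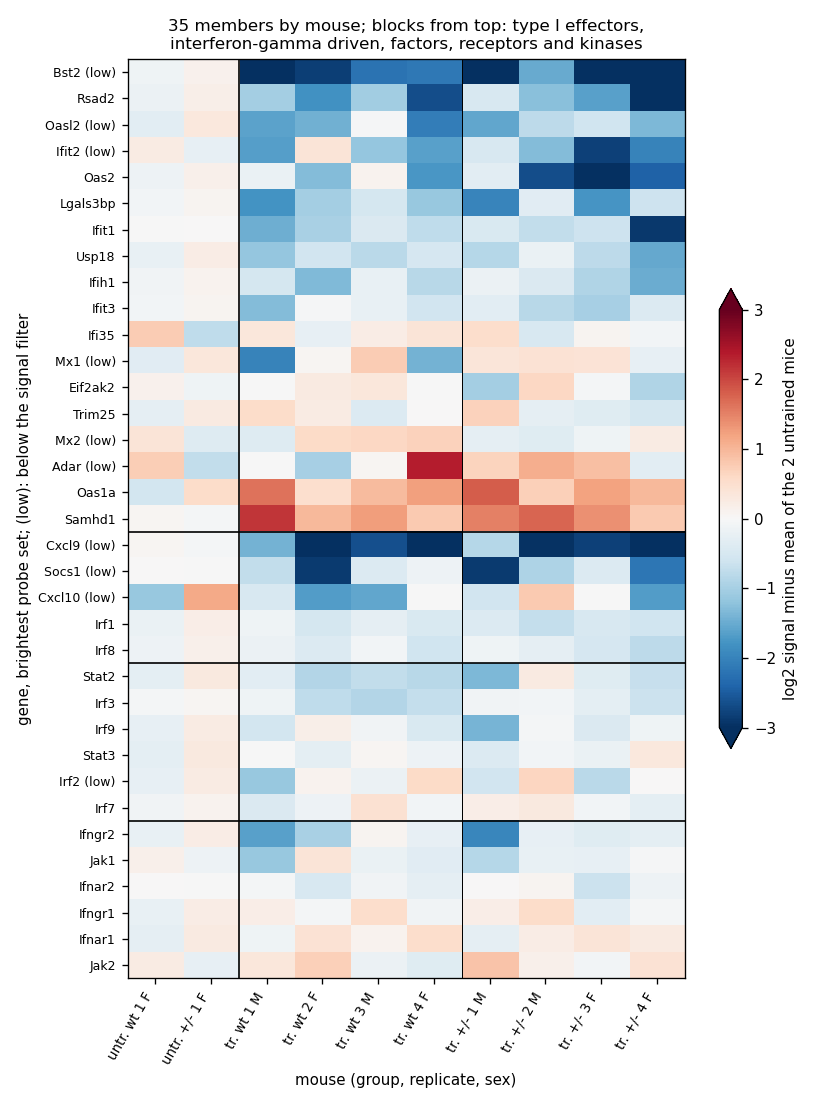
Log2 signal of the 35 members in each of the 10 mice, minus the mean of the 2 untrained mice (colour scale in log2 units; columns are mice by group, replicate and sex; genes are grouped by role, and those below the filter are marked low). All 8 trained mice are below 0 for Rsad2, Bst2 and Cxcl9, and all 8 are above 0 for Samhd1.

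The other genes of the pathway, listed by role, were measured beside the members. Of 89, 71 had a single-symbol probe set and 49 were tested. Of the 49, 30 were lower and 3 passed, beside 49.9% and 0.538% of all genes, and the median was -0.16. Of 16 tested interferon-gamma genes 11 were lower, and the median was -0.72. The 3 that passed, 2 lower and 1 higher, were all among these 16. At an unadjusted p under 0.05 (limma), 7 were lower and 3 higher, beside 3.89% and 5.1% of all genes. No trained mouse reached either untrained mouse in 9, and all 8 were above both in 3, beside 4.35% and 4.96% of tested genes. Gbp2, a guanylate-binding protein, read 4082.5 and 3745.0 in untrained and 1148.6 to 1508.2 in trained mice. It was lower in trained mice by 1.56 (SE 0.24, limma adjusted p = 0.0145). Igtp, an immunity-related GTPase, read 10386.2 and 8721.6 in untrained and 2907.8 to 4843.0 in trained mice. It was lower in trained mice by 1.43 (SE 0.23, limma adjusted p = 0.0176). Gbp2b, a near relative of Gbp2 whose probes may share targets with it, was the third that passed (limma adjusted p = 0.00358), in the opposite direction, with 113.5 and 92.5 in untrained and 874.1 to 1763.7 in trained mice. Its untrained values lie at the floor of 104 and it met the filter only through the trained arrays, so no size is given and its call is not independent of the filter. The proteasome subunit gene Psmb9 was at -1.64 (SE 0.36, adjusted p = 0.0942).

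Of 17 other type I genes tested, 12 were lower, beside 49.9% of all genes, none passed (limma), and the median was -0.34. No trained mouse reached either untrained mouse in 5, beside 4.35% of tested genes, and none had all 8 trained mice above both. At an unadjusted p under 0.05, 4 were lower and 1, Zbp1 at 0.88, was higher, beside 3.89% and 5.1% of all genes. Ifi27l2a, an interferon-induced gene of the Ifi27 family, read 5932.7 and 5901.2 in untrained and 999.1 to 2525.8 in trained mice, without overlap, at -1.94 (SE 0.41, adjusted p = 0.0715), and Rtp4 was at -0.93. Of 16 genes of viral sensing, 7 were lower, none passed or had an unadjusted p under 0.05, and the median was 0.03, with the adaptor Sting1 at -0.66 and Tlr4 at 0.66.

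Markers of other cell types were read in the same arrays. Of 16 leukocyte markers 15 were on the array. Of 10 tested, 9 were lower in trained mice, beside 49.9% of all genes, and none passed (limma). At an unadjusted p under 0.05, 5 were lower, beside 3.89% of all genes. Csf1r was among these at -0.52, while its dimmer tested probe sets were at 0.20 and -0.01. For 3 of the 10, Ptprc, C1qa and S100a9, no trained mouse reached either untrained mouse, beside 4.35% of tested genes. Ptprc, the pan-leukocyte gene CD45, read 1939.7 and 1318.7 in untrained and 396.0 to 1032.1 in trained mice. The summed leukocyte signal was 52294 and 49801 in the untrained mice and 30746 to 57694 in the trained mice, so the sums overlapped. The 4 dendritic markers on the array summed to 3786 and 4780 in untrained and 2934 to 4482 in trained mice. The 6 endothelial markers summed to 21948 and 26177 against 17783 to 23610. The ventricular muscle markers, which define the labelled tissue, summed to 1907095 and 2170913 in untrained and 1526215 to 1974875 in trained mice. Of these 8 markers, 3 had no trained mouse reaching either untrained mouse, beside 4.35% of tested genes. The 4 fibroblast markers summed to 78212 and 82702 against 63279 to 88250, the 4 of lung epithelium to 4071 and 3966 against 2298 to 4342, and the 5 of skeletal muscle to 131770 and 215040 against 112290 to 184276. No gene of these lists was under the floor on all arrays. The part of any of these cells in the member values was not tested, and in a whole ventricle fewer cells of a type and less RNA per cell cannot be told apart.

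Sex was compared within the 8 trained mice. None of the 25 members passed (limma), against 7 of all genes (0.0837%), and 5 had an unadjusted p under 0.05, all higher in males, against 4.57% of all genes that were higher in males at that level. These were Oas2 at 1.5 (SE 0.56), Rsad2 at 1.32 (SE 0.34), Ifih1 at 0.79 (SE 0.26), Samhd1 at 0.68 (SE 0.25) and Ifngr1 at 0.50 (SE 0.18), on the log2 scale of males minus females. The other tested Samhd1 probe sets were at -0.27, 0.20 and -0.15, so this gene gave no single direction by sex. The middle Rsad2 probe set, as given above, was at -0.31. The smallest adjusted p was that of Rsad2, 0.473. All 4 males lay above all 4 females in 5 members, Rsad2, Ifih1, Irf8, Ifnar2 and Ifngr1, beside 3.38% of all genes tested. For Rsad2 the males read 2715.3 to 4595.1 and the females 801.1 to 2077.2. Ifnar1 lay the other way, with males at 1483.2 to 2082.2 and females at 2158.3 to 2569.3. Of the 25, 18 were higher in males, beside 4555 of all 8365 genes. Leukocyte markers ran the same way, with 10 of 10 tested higher in males at a median of 0.34, none past the threshold and 3 with an unadjusted p under 0.05, Csf1r at 0.64, Adgre1 at 0.62 and Cd14 at 1.29. The GAPDH ratio was above 2 on 2 of the 4 male arrays and 1 of the 4 female arrays. The part of either in the sex differences was not tested.

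The genotype comparison asked whether trained plakoglobin (+/-) mice differ from trained wildtype mice in these genes. None of the 25 members passed (limma), 1 had an unadjusted p under 0.05, and the background was 0% past the threshold and 2.14% at the unadjusted level. That member was Oas2, which averaged 1201 ± 674.5 in wildtype and 558.2 ± 605.6 in plakoglobin (+/-) mice (SD, n = 4 each), a log2 difference of -1.46 (SE 0.56, limma adjusted p = 1). Its ranges overlapped, since trained plakoglobin (+/-) replicate 1 at 1458.7 lay above 2 of the wildtype mice. Eif2ak2, the double-stranded RNA-dependent kinase PKR, read 831.6, 1016.1, 1068.6 and 825.1 in wildtype and 415.6, 1300.1, 809.6 and 448.6 in plakoglobin (+/-) mice, at -0.48 (SE 0.43). A dimmer Eif2ak2 probe set was at 0.28. Irf3, with the values given above, was at 0.34 (SE 0.21), and its dimmer tested probe set was opposite in sign at -0.39 (SE 0.42). Its probe sets below the filter were at 1.47 and -0.44 in the fit without it. The 25 values ran from -1.46 to 0.34 with a median of -0.04. The middle Rsad2 probe set was higher in all 4 plakoglobin (+/-) mice than in all 4 wildtype mice. The difference was 0.78 (SE 0.34), which did not pass (limma). Its exact two-sided permutation p was 0.0286, the smallest that 70 labelings allow, and is not adjusted for the other member probe sets. The nearest values were 854.1 for plakoglobin (+/-) replicate 1 (GAPDH ratio 2.98) and 846.6 for wildtype replicate 2 (17.8). A dimmer Trim25 probe set separated in the opposite direction, at 1777.7 to 2140.2 in plakoglobin (+/-) and 2269.8 to 3040.9 in wildtype mice. Its difference was -0.43 (SE 0.19), which did not pass (limma), and the permutation test was not run on it. The brightest Trim25 probe set was at -0.22. How often genes in general separate this way by genotype was not counted. The brightest Rsad2 probe set was at 0.04, and the dimmest at -0.84 in the fit without the filter.

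The genotype by training term asked whether the training difference depends on genotype. With 1 untrained mouse per genotype, assumed to vary like the others, none of the 25 members passed (limma), none had an unadjusted p under 0.05 and every adjusted p was 1, beside 0% and 3.14% of all genes. Oas2 had a term of -1.77 (SE 1.16) and the brightest Rsad2 probe set one of -0.31 (SE 0.75). The middle Rsad2 probe set, which does not represent the gene in these counts, was opposite in sign at 1.53 (SE 0.65, limma adjusted p = 1) and had an unadjusted p under 0.05. Ifi35, a cytosolic interferon-induced protein singled out after its values were seen, had the smallest p of these, with a term of 1.35 (SE 0.62, limma adjusted p = 1). The untrained wildtype mouse read 2361.3 for Ifi35, above all 4 trained wildtype mice at 1171.6 to 1840.2. The untrained plakoglobin (+/-) mouse read 826.6, below all 4 trained plakoglobin (+/-) mice at 995.6 to 2017.2.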

How the data were processed

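Each of the 10 deposited columns holds linear array intensity for 22690 probe sets, which the authors computed with MAS5 5.0, per the submitters' processing notes. They carry no detection calls, and scanner files were not used here. Per the labels' protocols, TRIzol was used for extraction and the arrays received biotin-labelled cRNA.

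Values under 104, which is the 10th percentile, were set to that floor before taking log2, and arrays were not rescaled. Testing covered the 13576 probe sets, 64 controls left out, whose mean log2 signal reached 9.369 (the 40th percentile). A gene is represented by its brightest probe set with 1 annotated symbol, which gave 8365 tested genes of 12393, and each gene value is that of this probe set unless another is named. Of the 35 members, 25 passed the filter. Among members with several tested probe sets, 3 had probe sets of opposite sign.

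Linear models were fitted with limma 3.58.1 in R 4.3.3 (lmFit, then eBayes with an intensity trend), two-sided, with Benjamini-Hochberg adjustment over all probe sets tested and a threshold of 0.05. Training was fitted over all 10 mice with genotype and sex as terms, genotype and sex over the 8 trained mice, and the genotype by training term over all 10 mice. The fit was tested on simulated data. The number of arrays limits the precision. Each array is a separate mouse.

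The members and lists were chosen with earlier results of these data known. Values in every mouse are given for members past the threshold, for up to 3 per role with the largest training change and for the 3 with the largest genotype difference; of other pathway genes, those past the threshold and up to 2 per class are named. Promoter windows came from RefSeq (GRCm38.p6) and were searched with Python 3.11.15. The files name no genome build.

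Alternatives changed the normalization (quantile, or cyclic loess), the floor (a pseudocount of 1 in its place, or the 25th percentile), the filter (none, or the 60th percentile), the variance model (eBayes with no trend, or robust), the sex term (dropped) and the mice (without the 3 arrays of high GAPDH ratio, females alone, a single genotype, or each mouse left out in turn). Fits without a filter that also left out mice were chosen after seeing the data.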

Additional observations from a re-analysis of the deposited data

Results flagged for a closer look

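In 5 of the 70 groups of 4 trained mice examined, 1 mouse lay far from the other 3, which chance alone gives in about 1 in 20 groups. Ifit1 read 263.0 in trained plakoglobin (+/-) replicate 4, against 1180.1 to 1428.2 in the other 3 mice of its group. Mx1 read 350.5 in the same mouse, against 535.1 to 556.6. Mx2 read 86.5, under the floor, in trained wildtype replicate 1, against 202.5 to 222.0. Bst2 read 640.6 in trained plakoglobin (+/-) replicate 2, against 145.5 to 175.5, which was still below both untrained mice. Ifngr2 read 2312.8 in trained plakoglobin (+/-) replicate 1, whose GAPDH ratio was 2.98, against 6913.8 to 7513.3. The low mouse for Ifit1 and Mx1 had a GAPDH ratio of 0.849.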

How the results depend on the processing

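The training comparison called 85 probe sets, and 225 without the 3 arrays of high GAPDH ratio, 1 in wildtype mice only, 2 in plakoglobin (+/-) mice only, and 10 to 87 as single mice were left out. The lowest count, 10, came without the untrained plakoglobin (+/-) mouse; it was 34 without the untrained wildtype mouse and 50, 51 and 53 without trained wildtype replicate 4, trained plakoglobin (+/-) replicate 3 and trained plakoglobin (+/-) replicate 4. The count of members past the threshold, 1, was 0 without a filter, with eBayes without trend, without the sex term and in either genotype alone, and 0 to 1 as single mice were left out. The value of Rsad2 ran from -2.50 to -1.61 and its adjusted p from 0.00402 to 0.709. Members lower in trained mice numbered 18 to 21 of 25, or 11 of 15 with a filter at the 60th percentile. No member passed for genotype or for the genotype by training term in any setting run.

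Of the 25 members, 17 kept their sign in every setting and 8 did not. In wildtype mice only, Ifi35 was at -0.69, Trim25 at 0.40, Irf9 at 0.12, Stat3 at 0.06, Ifngr1 at 0.13 and Jak2 at -0.06. Ifngr1 was at 0.12 without the sex term, Jak1 at 0.01 in plakoglobin (+/-) mice only, and Jak2 at -0.04 without the 3 arrays of high GAPDH ratio. As single mice were left out, Ifi35 ran from -0.64 to 0.71, Trim25 from -0.54 to 0.22, Eif2ak2 from -0.31 to 0.02, Irf9 from -0.60 to 0.18, Stat3 from -0.37 to 0.20, Ifngr1 from -0.37 to 0.11, Jak1 from -0.21 to 0.09 and Jak2 from -0.17 to 0.52. The cause was not tested. No paired analysis was possible because littermates are not tied to each other in the labels, and replicate numbers follow only the order of the records.

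A change of over 1.5 times with a single mouse left out was seen in 17 of the 25. Of the members below the filter, fitted without it as single mice were left out, Cxcl10 ran from -1.71 to 0.02, Adar from -0.37 to 1.34 and Irf2 from -0.29 to 0.29, which turned sign. Bst2 ran from -3.34 to -2.61, Cxcl9 from -3.32 to -3.07, Socs1 from -1.87 to -0.75, Ifit2 from -2.13 to -1.14, Oasl2 from -1.61 to -1.16, Mx1 from -0.59 to -0.02 and Mx2 from 0.20 to 0.50. Signals near the floor of 104, as for Mx2 and the dimmest Rsad2 probe set, limit how well a difference can be read.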

Other observations

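Some genes that lie near a member on the chromosome, members among them, were singled out after their values were seen. Cmpk2, a nucleotide kinase gene next to Rsad2, had too low a mean signal to be tested. Its brighter probe set read 830.6 and 745.1 in the untrained mice and 178.0 to 647.1 in the trained mice, without overlap, while its dimmer probe set overlapped. Oas1a and Oas2 belong to the same gene cluster and had log2 differences of 0.97 (SE 0.40) and -2.26 (SE 0.67), neither past the threshold.

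A pair of interferon-gamma target genes outside the member list, singled out after their values were seen, were also below the filter. Cd274, which encodes the checkpoint ligand PD-L1, read 1869.7 and 1221.2 in the untrained mice and 61.5 to 398.0 in the trained mice, and Irgm2, an immunity-related GTPase, read 2856.3 and 2768.3 against 73.0 to 746.6. No trained mouse reached either untrained mouse in these genes, which held for 3.89% of the 12393 genes on the array.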
